A study of Mus musculus with 6 samples.

Results

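Undifferentiated mouse embryonic stem cells (mESCs) of the lines R1 and HN were each collected on 3 dates, and the date stands in the sample name of every RNA-seq library. The comparison described here sets the 2 libraries of the last date against the 4 libraries of the earlier dates, 6 libraries in all, with the cell line as a block. R1 is a wild type line of strain 129Sv. HN is nullizygous for Htt, the Huntington's disease gene, from which the promoter and exon 1 were deleted. Each genotype is represented by a single line, so the date effect was measured in 2 lines, with 1 library of each on every date. Taking the first collection as day 0, the second was on day 3 and the last on day 13. All cells were grown without feeders on gelatin, in serum medium with LIF and 3 inhibitors, SU5402 (FGF and VEGF receptors), PD184352 (MEK) and CHIR99021 (GSK3), and were passaged every 2 to 3 days. The passage, the dish, the RNA preparation and any other step that went with a date cannot be told apart from the date. With 1 library per line and date, p-values measure the spread between these libraries.

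Embryonic stem cells in such medium are kept undifferentiated by LIF, which acts through STAT3, and by the block of MEK and GSK3, which lowers ERK signalling and stabilises beta-catenin. ERK activity is read from its feedback genes of the Sprouty and dual-specificity phosphatase families, and BMP activity from the Id genes, whose products hold back differentiation. A small share of mESCs passes at any time through a state in which genes of the Zscan4 cluster, active in the 2-cell embryo, are switched on. Genes of later lineages, such as the Hox genes, are held silent in mESCs, many of them by Polycomb proteins.

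The libraries held between 1640391 and 3866717 reads on genes. Day 13 gave 1640391 reads in R1 and 2171933 in HN, against 2078543 to 3866717 in the earlier libraries. Although they were not the deepest, the day 13 libraries detected the most genes. In R1 18133 genes had at least 1 read on day 0, 19083 on day 3 and 20675 on day 13, and in HN 18986, 18478 and 20542. After every library had been thinned at random to 1640391 reads, the gap was wider, with 20675 and 19961 genes on day 13 against 16438 to 18382 in the earlier libraries. The ranges of the groups did not overlap at either depth. Over genes, the day 13 libraries of R1 and HN had the lowest chi-square per degree of freedom of the 15 pairs of libraries. This value, which is 1 for reads drawn from the same RNA, was 3.73 for them, and that of the other pairs lay between 5.11 and 14.6. Where RNAs differ it grows with depth, and it was not computed on thinned libraries. The deepest pair, R1 and HN on day 3, had 7. Whether the day 13 pair was the most alike at equal depth was not tested.

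**Figure D1:**
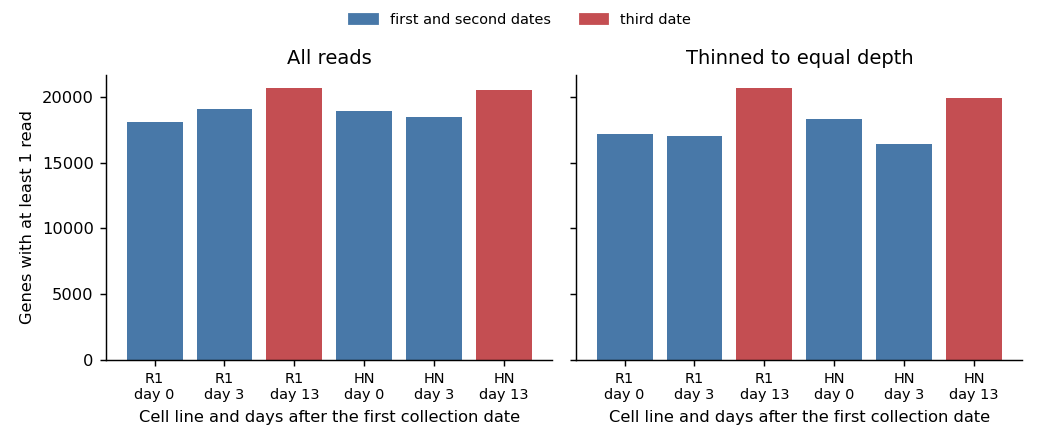
Number of genes with at least 1 read in each library, with all reads (left) and after thinning to 1640391 reads (right). Bars are single libraries, by line and by days after the first collection date. The 2 day 13 bars (red) stand above the 4 earlier bars (blue) in both panels.

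The line labels held on every date. Htt, the targeted gene, had a normalized read count (reads divided by the size factor of the library) of 230 on day 0, 257 on day 3 and 199 on day 13 in R1, and of 18.3, 58.1 and 54.2 in HN. Its date difference did not pass the test (log2 fold change 0.21, SE 0.36, limma adjusted p = 0.696). The mESC markers were abundant in all libraries. Pou5f1, which encodes the core pluripotency factor Oct4, was at 3460, 3405 and 2035 in R1 and at 3347, 3597 and 1994 in HN, so the day 13 values lay below all earlier ones (log2 fold change -0.78, SE 0.15, limma adjusted p = 0.0121). Esrrb, a nuclear receptor of naive pluripotency, was also lower on day 13 in both lines (log2 fold change -0.65, SE 0.16, limma adjusted p = 0.0226). For the other markers Sox2, Nanog, Klf4 and Zfp42 the log2 fold changes lay between -0.29 and -0.05, none with an adjusted p under 0.05.

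Genes with a mean normalized count of at least 5 over the 6 libraries were tested, 14276 of the 23412 in the table. A gene is described as called where its adjusted p-value (limma on log2 of the value plus 1, Benjamini-Hochberg) was under 0.05 and its absolute log2 fold change above 1. On day 13 1216 genes were called higher, 8.52% of those tested, and 176 were called lower, 1.23%. In each line, the day 13 value of all these genes lay outside both earlier values of that line. Separation of the dates was common among all genes, however. Of the 14276 tested, both day 13 values lay above all earlier ones in 3037 and below them in 2987. Among the 7659 genes with a mean of at least 50, these numbers were 348 and 2579. Values below all earlier ones therefore do not by themselves mark a gene. With each date given a level of its own, which makes the date pairs a replicate block, 1995 genes were called higher and 213 lower. Without the day 13 library of R1, or without that of HN, 0 genes were called in either direction, with 1562 and 2937 genes at an unadjusted limma p under 0.05. Without the day 0 library of HN, 2000 were called higher and 299 lower. Quantile normalization, which makes the distributions of all libraries equal, gave 399 genes called higher and 415 lower, so that 49% of calls were higher instead of 87.4%.

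The direction of the calls followed the expression level. Of the 7659 genes with a mean of at least 50, 21 were called higher (0.274%) and 120 lower (1.57%), and the median log2 fold change was -0.26. Of the 6617 genes with a mean under 50, 1195 were called higher (18.1%) and 56 lower (0.846%), and the median was 0.55. Ordered by mean level and divided into 10 classes of equal size, the genes had a median log2 fold change of 1.32 in the lowest class, 1.11 in the next, 0.58 in the third, 0.16 in the fourth and between -0.3 and -0.11 in the others. Part of this gradient is set by the filter, since 480 of the genes called higher passed the minimum of 5 through day 13 alone. Among the 13064 genes with an earlier mean of at least 5, 736 were called higher and 176 lower. Since most well expressed genes lay below 0, fold changes are read against the shift of -0.26 where level matters. When the libraries were scaled so that this shift was 0 (an alternative chosen after the data were seen), 1514 genes were called higher and 43 lower.

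**Figure D2:**
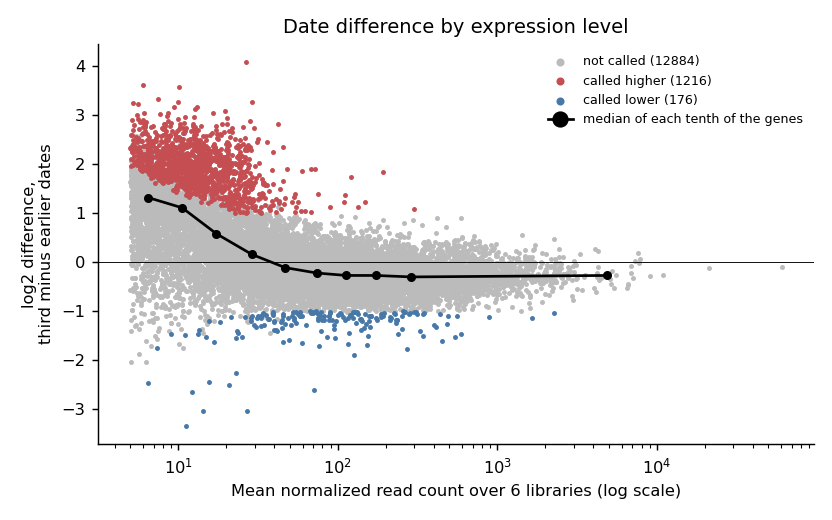
log2 difference between day 13 and the earlier dates for each of the 14276 genes tested (vertical) against the mean normalized read count over 6 libraries (horizontal, log scale). Red points were called higher and blue points lower. Black circles are the medians of 10 classes of genes, which fall from 1.32 at the lowest levels to about -0.3 at high levels.

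Most genes had the same sign of date difference in both lines. Over the 14276 genes, the difference between day 13 and the mean of the earlier dates had a Pearson r of 0.77 between R1 and HN, and 78.9% of genes had the same sign in both. The lines share no library, but each gene's level is common to both differences, so r is a description across genes, which are not independent. Among the genes with a mean of at least 50 r was 0.65 and 80% had the same sign. R1 moved further than HN at both ends, with a median of 0.68 against 0.45 for genes with a mean under 50 and of -0.32 against -0.2 for the others. A test of the difference between the lines rests on 1 day 13 library of each line. An absence of calls therefore does not show that both lines moved alike. No gene was called for a difference of the date effect between the lines (0% of 14276 by limma, with 149 at an unadjusted p under 0.05). edgeR and DESeq2 on the recovered reads also called 0 genes, with 147 and 20 at an unadjusted p under 0.05.

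**Figure D3:**
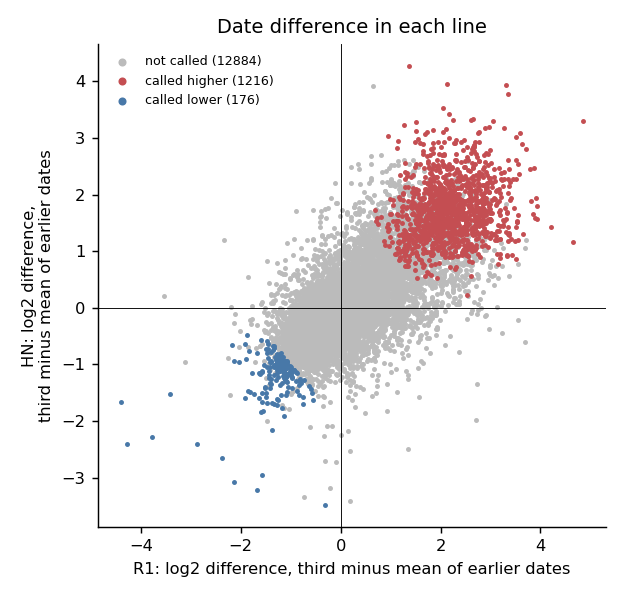
log2 difference between day 13 and the mean of days 0 and 3 in R1 (horizontal) and in HN (vertical) for each gene tested. Red points were called higher, blue points lower and grey points not called. Called genes lie in the quadrants where both lines moved the same way.

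Genes of chromosomes 1 and 11 stood apart from those of all other chromosomes. Among genes with a mean of at least 50, the median log2 fold change was 0.15 for the 420 genes of chromosome 1 and 0.08 for the 626 genes of chromosome 11, while the medians of the other 18 chromosomes, X included, lay between -0.39 (chromosome 17) and -0.22 (chromosome 12). Against the genes of the other chromosomes together, chromosome 1 was higher by 0.58 on the log2 scale in R1, a ratio of 1.5, and by 0.32 in HN, a ratio of 1.25. Chromosome 11 was higher by 0.42 in R1, a ratio of 1.34, and by 0.37 in HN, a ratio of 1.29. The shift was broad. The fold change lay above the median of the other chromosomes for 92.9% of the chromosome 1 genes and 91.4% of the chromosome 11 genes.

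The whole length of both chromosomes took part. Chromosome 1 was divided into 10 stretches of 20 Mb holding 15 to 71 genes each, and the median of every stretch lay above that of the other chromosomes in both lines, by 0.49 to 0.7 in R1 and by 0.2 to 0.42 in HN. All 7 stretches of chromosome 11, with 29 to 156 genes, also lay above it, by 0.31 to 0.55 in R1 and by 0.31 to 0.54 in HN. In single libraries, the level of chromosome 1 genes relative to the other chromosomes, centred on each gene's mean over the 6 libraries, was -0.18 on days 0 and 3 and 0.41 on day 13 in R1, and -0.11, -0.13 and 0.2 in HN. For chromosome 11 it was -0.17, -0.14 and 0.26 in R1 and -0.14, -0.09 and 0.26 in HN. Between days 0 and 3 the same chromosomes differed from the others by only -0.01 and 0.03 in R1 and -0.03 and 0.04 in HN. Of the genes tested at any level, 142 of 799 on chromosome 1 (17.8%) and 153 of 1151 on chromosome 11 (13.3%) were called higher, while 0 and 2 were called lower. The other 18 chromosomes had 2.87% (X) to 10% (chromosome 15) called higher. DNA copy number was not measured here.

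**Figure D4:**
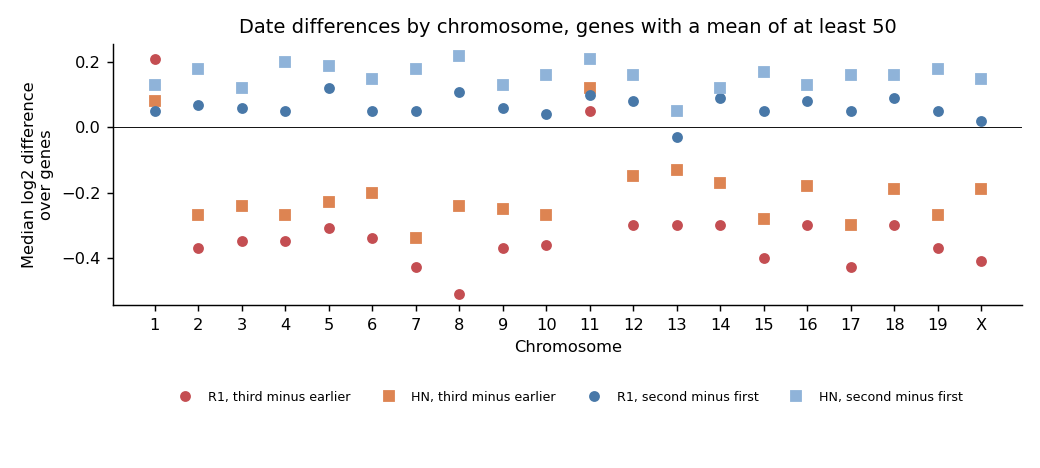
Median log2 difference over genes with a mean of at least 50, by chromosome. Red and orange show day 13 minus days 0 and 3 in R1 and HN, and blue shades show day 3 minus day 0. Chromosomes 1 and 11 lie above 0 in both lines (0.21 and 0.05 in R1, 0.08 and 0.12 in HN) and all other chromosomes lie below it for the day 13 difference.

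A set of 6 short motifs was counted on both strands in the 250 bases before the start of each gene tested that has an entry in the RefSeq promoter table for GRCm38.p6 (10469 genes). The ETS-type core CGGAAG was found in 9.4% of the genes called higher, 24.1% of those called lower and 24.2% of all tested, and in 13.8% of all 27025 promoters of the table. Among genes with a mean under 50, it was found in 9.29% of those called higher and 18.3% of those not called. CCAAT was found in 30.6% of the genes called higher, 36.2% of those called lower and 36.3% of all tested (34.5% of all promoters). GGGCGG was found in 56.2%, 56.9% and 60.7% (32.9%). The TATA box TATAAA was found in 7.87%, 6.9% and 6.11% (13%), the E-box CACGTG in 6.7%, 7.76% and 8.64% (6.05%), and the CRE site TGACGTCA in 2.35%, 2.59% and 2.73% (1.62%). The promoters of 2 genes that fell, Dusp6 and Bmp4, and of 2 that rose, Hoxb4 and Xlr3a, are shown from the RefSeq table, since their values are described next. Capitals mark matches to any of the 6 motifs on either strand. Dusp6 and Bmp4 each hold 1 match to the ETS-type core, on the opposite strand, while Hoxb4 and Xlr3a hold 0.
Dusp6 chr10:99262981-99263230, plus strand: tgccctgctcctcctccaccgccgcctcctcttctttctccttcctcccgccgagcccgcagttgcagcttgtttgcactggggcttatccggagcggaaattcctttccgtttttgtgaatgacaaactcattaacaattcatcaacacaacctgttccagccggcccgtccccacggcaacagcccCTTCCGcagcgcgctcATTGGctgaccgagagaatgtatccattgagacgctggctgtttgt
Bmp4 chr14:46390670-46390919, minus strand: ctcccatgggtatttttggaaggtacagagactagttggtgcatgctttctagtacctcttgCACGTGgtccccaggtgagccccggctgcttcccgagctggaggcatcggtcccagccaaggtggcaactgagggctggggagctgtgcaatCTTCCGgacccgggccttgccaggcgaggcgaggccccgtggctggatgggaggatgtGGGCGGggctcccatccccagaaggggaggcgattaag
Hoxb4 chr11:96318017-96318266, plus strand: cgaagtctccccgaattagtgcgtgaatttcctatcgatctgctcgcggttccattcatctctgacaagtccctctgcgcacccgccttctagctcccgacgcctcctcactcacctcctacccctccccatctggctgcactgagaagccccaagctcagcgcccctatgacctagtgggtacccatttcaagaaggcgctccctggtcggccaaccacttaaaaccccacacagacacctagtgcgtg
Xlr3a chrX:73097096-73097345, minus strand: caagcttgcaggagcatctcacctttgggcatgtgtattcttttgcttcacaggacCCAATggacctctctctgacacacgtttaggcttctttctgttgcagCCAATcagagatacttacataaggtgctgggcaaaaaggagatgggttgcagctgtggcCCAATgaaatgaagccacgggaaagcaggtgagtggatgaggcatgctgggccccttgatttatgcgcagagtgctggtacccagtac

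Id1, a BMP target whose product blocks basic helix-loop-helix factors, fell the most of all well expressed genes. In R1 its normalized count was 84.1 on day 0, 161 on day 3 and 25.6 on day 13, and in HN it was 53.5, 94.3 and 7.58. Both day 13 values lay below all earlier ones (log2 fold change -2.61, SE 0.33, limma adjusted p = 0.00423). Of the 17 genes of the BMP and Id list, all of which were tested, 3 were called lower (Id1, Bmp4 and Dusp9) and 2 higher (Bmp2 and Msx1), and the list median was -0.09 against -0.07 over all genes. Bmp4, a ligand of the pathway, was at 205 on day 0, 411 on day 3 and 119 on day 13 in R1 and at 153, 290 and 105 in HN (log2 fold change -1.14, SE 0.28, limma adjusted p = 0.0214). Scaled on well expressed genes, its log2 fold change was -0.88 and it was no longer called. Bmp2, another ligand, was 2.13, 2.96 and 21.6 in R1 and 6.08, 2.13 and 11.9 in HN, a rise from a few reads. Its earlier mean was 3.32, so it passed the minimum level through day 13 alone. Among the other Id genes, Id3 was not called (log2 fold change -0.94, SE 0.33, adjusted p = 0.0693) and Id2 stayed between 5.18 and 8.52 in all libraries.

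Of the feedback genes of ERK signalling, Spry4 and Dusp6 fell on day 13. Spry4, a Sprouty inhibitor of receptor tyrosine kinase signalling, was at 245 on day 0, 585 on day 3 and 146 on day 13 in R1 and at 157, 426 and 57.4 in HN (log2 fold change -1.76, SE 0.37, limma adjusted p = 0.0138). Dusp6, a phosphatase that inactivates ERK, was at 195, 439 and 101 in R1 and at 241, 347 and 107 in HN (log2 fold change -1.47, SE 0.27, limma adjusted p = 0.0105). In both genes the highest value of each line was that of day 3 and the lowest that of day 13. Day 3 against day 0 was itself a difference of 1.34 for Spry4 (adjusted p = 1.04e-06) and 0.85 for Dusp6 (adjusted p = 0.000295) on the log2 scale, so the earlier dates were not alike. These 2 were the only ones called lower of the 15 ERK response genes tested (of 17 listed), and none was called higher. DESeq2 called 1 of them lower and the fit without the variance trend 0. Without the day 0 library of R1, 5 were called lower, and without that of HN 4 were called lower and 1 higher. The other Sprouty and Spred genes tested and Dusp4 were not called. Spry1, Spry2 and Spred1 had log2 fold changes of -0.77, -0.57 and -0.46 (limma adjusted p = 0.0531, 0.106 and 0.181), and Spred2 and Dusp4 of 0.02 and 0.28 (0.95 and 0.589). Egr1, an immediate early gene, had the highest value of the list (log2 fold change 1.51, limma adjusted p = 0.162), from a mean of 6.11. Of the 15, 12 had a log2 fold change below 0, and the median was -0.5, or -0.67 for the 10 with a mean of at least 50. The ETS factors Etv4 and Etv5, which are induced by FGF and ERK, were not called (log2 fold changes of -0.91 and -0.5, adjusted p = 0.0694 and 0.0618 by limma). The immediate early gene Egr3 was 3.19, 2.96 and 29.7 in R1 and 6.08, 2.13 and 30.3 in HN, higher on day 13 in both lines (log2 fold change 2.82, SE 0.51, limma adjusted p = 0.0105). With an earlier mean of 3.59, Egr3 passed the minimum level through day 13 alone. Junb, an AP-1 subunit, was called lower (log2 fold change -1.12, SE 0.2, adjusted p = 0.0105). In all, 2 of 23 immediate early genes tested were called higher and 2 lower.

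Epha2, Porcn and Rarg were among the 15 largest falls of well expressed genes, which also held Ccdc3, Ppm1j, Exoc3l, Lgals3, D7Ertd143e, Zfp532 and Nt5e at log2 fold changes of -1.71 to -1.5. Epha2, an ephrin receptor, was at 588, 604 and 208 in R1 and at 801, 1023 and 343 in HN (log2 fold change -1.46, SE 0.16, limma adjusted p = 0.00229). Porcn, whose product adds the lipid that Wnt proteins need for secretion, was at 159, 179 and 56.6 in R1 and at 197, 254 and 62.8 in HN (log2 fold change -1.69, SE 0.19, limma adjusted p = 0.00255). Rarg, a retinoic acid receptor, was at 375, 735 and 168 in R1 and at 386, 831 and 186 in HN (log2 fold change -1.62, SE 0.29, limma adjusted p = 0.0104). In all of them the day 13 values of both lines lay below the earlier values, while Rarg also rose between days 0 and 3 by 1.04 (limma adjusted p = 9.56e-07). Of the 22 cytochrome P450 genes tested, 4 were called higher, beside 18.1% of all genes with a mean under 50, and 3 of the 4 passed the minimum level through day 13 alone. The 4 were Cyp26a1, Cyp26b1 and Cyp26c1, which encode enzymes that break down retinoic acid (log2 fold changes of 2.33, 1.9 and 1.89), and Cyp2c44 (1.7). Cyp26a1 was 2.13, 0.74 and 22.9 in R1 and 7.3, 2.84 and 13 in HN.

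Of the 15 Nodal genes tested, 2 were called lower and 1 higher. Nodal, the ligand, was at 259, 226 and 102 in R1 and at 246, 349 and 165 in HN (log2 fold change -1.03, SE 0.19, limma adjusted p = 0.0108). Foxh1, a DNA-binding partner of its SMAD effectors, was at 118, 178 and 56.6 in R1 and at 102, 150 and 60.7 in HN (log2 fold change -1.18, SE 0.23, limma adjusted p = 0.012). Both kept their direction but lost the call when the libraries were scaled on well expressed genes. The feedback inhibitors Lefty1 and Lefty2 differed instead between days 0 and 3 (log2 differences of -2.37 and -2.01) and had day 13 values between those of the earlier dates. Of the 19 Wnt and beta-catenin genes tested, Cdx1 was called lower (-1.19), and Nkd1 and Tcf7l2 were called higher (1.47 and 1.22). The LIF and STAT3 list had 1 of 17 called lower, Junb, with Stat3 and Lifr at log2 fold changes of -0.1 and -0.29, neither called.

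**Figure D5:**
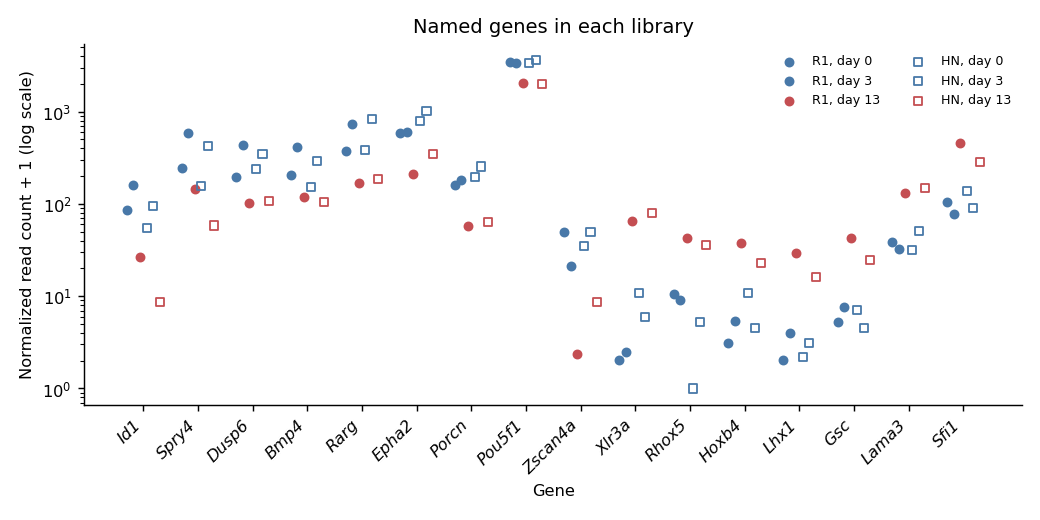
Normalized read count plus 1 (vertical, log scale) of 16 genes in each library. Filled circles are R1 and open squares HN, blue for days 0 and 3 and red for day 13. The red points lie below the blue points of the same line from Id1 to Zscan4a and above them from Xlr3a to Sfi1.

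The pluripotency network as a whole moved little beyond the shift of well expressed genes. Of the 26 core and naive pluripotency genes, 22 had a log2 fold change below 0, the median was -0.33, and none was called lower. Dppa3, a maternal and germ cell factor, was the only one called higher, from counts of 2.22 to 4.25 on the earlier dates to 13.5 in R1 and 17.3 in HN. It passed the minimum level through day 13 alone. Nr0b1, which encodes an orphan nuclear receptor of the network, had the lowest log2 fold change of the list (-0.93, SE 0.18, limma adjusted p = 0.0116) and was not called. Of the formative and primed genes 3 of 19 were called higher (Grhl2, Pou3f1 and Zic2). The genes of DNA methylation and demethylation had a median of -0.41 over 16 tested and of -0.59 over the 14 with a mean of at least 50. None of the 16 was called lower, and the 2 called were higher, Dppa3 and Tet3. Tet3, a low-level relative of Tet1, was at 13.8, 15.5 and 51.2 in R1 and at 18.3, 14.9 and 26 in HN (log2 fold change 1.18, SE 0.36, limma adjusted p = 0.0402). Tet1, which oxidises methylated cytosine, was at 1564, 1963 and 758 in R1 and at 1396, 1806 and 921 in HN. Its log2 fold change of -1 (SE 0.18, limma adjusted p = 0.0104) did not pass the size threshold. The methyltransferase genes Dnmt1 and Dnmt3b had log2 fold changes of -0.68 and -0.79, with adjusted p = 0.0198 and 0.0423 by limma. Cbx5, which encodes the heterochromatin protein HP1 alpha, was called lower, at 2000, 2114 and 969 in R1 and 1899, 2012 and 851 in HN (log2 fold change -1.14, SE 0.15, limma adjusted p = 0.00423).

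Zscan4 genes of the 2-cell-like state fell on day 13. Of 26 listed, 24 were in the table and 12 were tested. Among these 12, 6 were called lower, beside 1.23% of all genes tested and 0.846% of those with a mean under 50. None was called higher, and 11 were below 0 in both lines (median -1.51). Tdpoz3, at 0.68, was the exception, and the 2 members with a mean of at least 50 had a median of -0.23. The summed level of the list overlapped between the dates, at 408 to 435 CPM (counts scaled by the total of the library) on day 13 against 415 to 541 before. Zscan4a was at 49, 20 and 1.35 in R1 and at 34.1, 48.9 and 7.58 in HN (log2 fold change -3.04, SE 0.46, limma adjusted p = 0.00796). Zscan4d was at 22.4, 30.3 and 8.09 in R1 and at 18.3, 56 and 3.25 in HN (log2 fold change -2.27, SE 0.48, limma adjusted p = 0.0139). For both genes the day 13 values lay below all earlier values. Zscan4c, Zscan4e, Zscan4f and Gm5662 were the others called, with log2 fold changes of -1.52, -3.34, -2.45 and -2.65. The day 13 means of Zscan4a, Zscan4e, Zscan4f and Gm5662 were 4.46, 0.542, 3.24 and 1.76. These genes thus passed the minimum level of 5 through the earlier dates alone. The Zscan4 genes are near-identical copies within a cluster of chromosome 7 (from 10794242 to 11402318 for those named), and how reads were divided among them is uncertain, so their values are not independent of each other. The same number, 6, was called lower by edgeR and by DESeq2 and with the scaling on well expressed genes, and 9 after quantile normalization.

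Of the 21 well expressed genes called higher, Lama3, a laminin chain of basement membranes, had the largest fold change beside Speg, at 37.3, 31.8 and 132 in R1 and at 30.4, 49.6 and 148 in HN (log2 fold change 1.91, SE 0.25, limma adjusted p = 0.00423). Sfi1, which encodes a centrin-binding protein of centrosomes, was at 104, 77.7 and 452 in R1 and at 137, 90 and 285 in HN (log2 fold change 1.83, SE 0.25, limma adjusted p = 0.00455). The day 13 values of both lines were above all earlier ones for both genes. Speg, a kinase of striated muscle, and Asic4, of the acid-sensing channel family, are neighbours on chromosome 1 (from 75375297 to 75432320 and from 75450436 to 75474343) and rose by 1.91 and 3.57 on the log2 scale. Asic4, with an earlier mean of 1.58, passed the minimum level through day 13 alone. Speg, Rbm44 and Sfi1, among the 4 genes with the largest rise at a mean of at least 50, lie on chromosomes 1 and 11, and their rises were far above the median of those chromosomes. The synaptic genes Shank3 and Nrxn2 (1.4 and 1.23), the transcription factor genes Zfhx3 and Tfap2c (1.38 and 1.13) and the lactate dehydrogenase gene Ldhb (1.12) were also among the 15 largest rises.

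Xlr3a, Rhox5 and Nxf3, all on the X chromosome, rose from low levels. Xlr3a had the largest fold change of all genes tested, with 1.06, 1.48 and 64.7 in R1 and 9.73, 4.96 and 78 in HN (log2 fold change 4.08, SE 0.5, limma adjusted p = 0.00316). It has close copies nearby on the X chromosome, with which its reads may be shared. Its earlier mean was 4.31, so it passed the minimum level of 5 through day 13 alone. Rhox5, a homeobox gene of the reproductive cluster, was 9.58, 8.14 and 41.8 in R1 and 0, 4.25 and 34.7 in HN (log2 fold change 3.04, SE 0.65, limma adjusted p = 0.0142). Nxf3, of the mRNA export factor family, was 2.13, 1.48 and 33.7 in R1 and 9.73, 19.1 and 108 in HN (log2 fold change 3.27, SE 0.43, limma adjusted p = 0.00423). In these 3 genes both day 13 values lay above all earlier ones. The germline list had 31 genes, of which 27 were tested, 6 were called higher (Xlr3a, Rhox5, Tdrd6, Sycp2, Brdt and Smc1b) and none lower, beside 8.52% of all genes tested and 18.1% of those with a mean under 50. Only Xlr3a and Rhox5 of these 6 are X-linked, and the lowest value of the list was that of another X-linked gene, Taf7l (log2 fold change -0.46, limma adjusted p = 0.467). The summed level of the list was 664 and 858 CPM on day 13 against 445 to 527 on the earlier dates. On the X chromosome as a whole only 2.87% of genes were called higher, the lowest share of all chromosomes.

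Hox genes, the patterning genes of the body axis, were detected at low levels throughout and took more reads as a group on day 13. Summed over all 40, they took 64.3, 66.9 and 315 CPM in R1 and 126, 66.2 and 224 CPM in HN, which was 4.81 and 2.33 times the mean of the earlier dates. After thinning to equal depth, 40 and 39 of the 40 had at least 1 read on day 13, against 29 to 38 on the earlier dates. Of the 33 tested, 16 were called higher and none lower, beside 18.1% of all tested genes with a mean under 50. The means of the 33 lay between 5.02 and 24.7. In classes of all genes by mean level, 17.5% were called higher at 5 to 8.33, 29.7% at 8.33 to 13.4 and 24.4% at 13.4 to 22.4. Of the 33, 20 reached the minimum through day 13 alone, and of the other 13 genes 5 were called. Hoxb4 was 2.13, 4.44 and 36.4 in R1 and 9.73, 3.54 and 21.7 in HN (log2 fold change 2.44, SE 0.55, limma adjusted p = 0.017). It is among the 20 that reached the minimum through day 13 alone. Hoxd11 was 3.19, 9.62 and 36.4 in R1 and 3.65, 4.25 and 23.8 in HN (log2 fold change 2.41, SE 0.49, limma adjusted p = 0.0134). Quantile normalization left 4 Hox genes called, DESeq2 on the recovered reads 9, thinning to equal depth 7, and leaving out the day 0 library 10 for R1 and 25 for HN. The Hoxb cluster, with 7 of the 16 called genes, lies on chromosome 11, and 9 Hox genes were called with chromosomes 1 and 11 left out.

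Some genes of other lineages were also called higher at low levels, and 18.1% of all genes tested with a mean under 50 were. By class of mean level, the share of all genes called higher was 17.5% at 5 to 8.33 and 29.7% at 8.33 to 13.4. It was 24.4% at 13.4 to 22.4 and 10.7% at 22.5 to 37. The 15 primitive streak and mesoderm genes tested had 6 called higher, among them Lhx1 (1.06, 2.96 and 28.3 in R1 and 1.22, 2.13 and 15.2 in HN) and Gsc (4.26, 6.66 and 41.8 in R1 and 6.08, 3.54 and 23.8 in HN), and 1 lower. The gene called lower was Eomes, a T-box factor, which was the only member of that list with a mean of at least 50, at 63.9, 107 and 27 in R1 and 142, 179 and 55.2 in HN (log2 fold change -1.55, SE 0.24, limma adjusted p = 0.00798). Of 20 neural genes tested, 7 were called higher, among them Hes5 and Zic1 (log2 fold changes of 2.29 and 2.15), and none lower. Of 18 primitive endoderm genes, 5 were called higher, among them Gata6 and Sox17 (1.92 and 2.04), and 1, Apoe, lower. Of 19 fibroblast genes, 6 were called higher, among them Prrx1 (1.06, 1.48 and 25.6 in R1 and 3.65, 1.42 and 18.4 in HN) and Col1a1 (2.13, 2.22 and 20.2 in R1 and 2.43, 2.13 and 14.1 in HN), and none lower. Trophoblast genes had 2 called higher and 1 lower of 13, and the blood and immune list 1 and 1 of 4. Of the genes called higher, 3 of the 6 streak and mesoderm, 3 of the 7 neural, 0 of the 5 primitive endoderm and 4 of the 6 fibroblast genes reached the minimum level through day 13 alone, Lhx1, Prrx1 and Col1a1 among them. Prrx1 and Sox17 lie on chromosome 1 and Lhx1 and Col1a1 on chromosome 11. After thinning to equal depth, 3 streak and mesoderm, 2 neural, 4 primitive endoderm and 2 fibroblast genes were called higher. With an earlier library left out, 3 to 10 streak and mesoderm, 4 to 10 neural, 4 to 6 primitive endoderm and 3 to 9 fibroblast genes were called higher, the most in each list without the day 0 library of HN.

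The summed levels of these marker lists separated the dates only in part. The streak and mesoderm list took 135 to 159 CPM on day 13 against 44.5 to 114 before, and the trophoblast list 189 to 208 against 114 to 177. The neural list (522 to 536 against 399 to 566), the primitive endoderm list (1122 to 1955 against 1098 to 2955), the fibroblast list (1205 to 1261 against 892 to 1276) and the blood list (60.3 to 61 against 44.5 to 110) overlapped between the dates. No marker of these lists was at 0 in all libraries, except 4 of the 16 blood and immune genes. The part of other cell types in the date difference was not tested.

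Gene families that are silent in mESCs gained reads as well. The 1471 olfactory and vomeronasal receptor entries, which encode receptors of sensory neurons, took 195, 199 and 807 CPM in R1 and 305, 156 and 611 in HN. After thinning, 777 and 665 of them had at least 1 read on day 13 against 223 to 384 before. The 104 keratins and keratin-associated proteins took 116, 107 and 320 CPM in R1 and 153, 95.2 and 268 in HN. The day 13 libraries were the highest of each line for both families. Within the genes with a mean under 50, the rise grew with the length of the gene on the genome, from a median log2 fold change of 0.32 in the shortest of 5 classes to 1.13 in the longest. Among genes with a mean of at least 50, it fell with GC content, from -0.16 in the class of lowest GC to -0.41 in that of highest GC. Among genes with a mean under 50 it went the other way, from 0.43 in the class of lowest GC, with 13% called higher, to 0.8 in that of highest GC, with 27.9%. Antisense genes, whose reads cannot be told apart from those of their partners without strand information, had a median of 0.72 over 76 tested. The part of gene length and GC content in the calls was not tested.

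Genes of general cell functions were called rarely, but so were well expressed genes of any kind. Among all genes with a mean of at least 50, 0.274% were called higher and 1.57% lower. That level held 36 of the 36 spliceosome and 71 of the 75 oxidative phosphorylation genes tested, for instance. None was called among the 25 cholesterol synthesis, 15 fatty acid synthesis, 20 hypoxia, 23 endoplasmic reticulum stress, 21 heat shock, 22 p53 target, 30 G2/M, 36 spliceosome, 34 nucleolus, 40 lysosome, 38 proteasome, 75 oxidative phosphorylation and 76 mitochondrial ribosomal genes tested. Their medians lay between -0.61 (p53 targets) and -0.05 (cholesterol synthesis). Among cytosolic ribosomal protein genes 1 of 81 was called, Rps29, lower (log2 fold change -1.38), and in G1/S and replication 1 of 30, E2f2, lower. Of 22 glycolysis genes Ldhb was called higher, and of 61 replication-dependent histone entries 2 were. Imprinted genes had 3 of 36 called lower (Peg10, Peg3 and Grb10) and 5 higher, all 5 from low levels. Peg10, a retrotransposon-derived gene of the placenta, was at 324, 779 and 233 in R1 and 352, 622 and 159 in HN (log2 fold change -1.33, SE 0.3, limma adjusted p = 0.0169). The ATF4 response had 3 of 43 called higher and 1 lower, the solute carriers 26 of 242 higher and 4 lower, and the Zfp zinc finger genes 10 of 339 higher and 6 lower. Nuclear long noncoding RNAs had Neat1 and Ftx called lower, both at -1.14, of 15 tested.

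Over all genes tested, the earlier dates differed from each other by fewer calls, but the gap lay mainly in genes of low level. Fitted on genes with a mean of at least 50 alone, day 3 against day 0 gave 109 called genes. The same fit for day 13 gave 17 called higher and 105 lower. With no size threshold, 1970 genes had a limma adjusted p under 0.05 for day 3 against day 0, and 2306 for day 13. The 2 contrasts rest on unlike numbers of libraries. Day 3 against day 0, with the line as a block and the same threshold, gave 110 genes called higher (0.771%) and 251 lower (1.76%). Both contrasts use the same earlier libraries, so their values are given side by side only. Of the 176 genes called lower on day 13, 105 had risen from day 0 to day 3 in both lines and 21 had fallen in both. These counts are partly built in, since a high day 3 value also raises the earlier mean. The share of all genes that rose in both lines was not counted. For genes with a mean of at least 50, the day 3 minus day 0 medians of 18 chromosomes (1 and 11 left out) lay between -0.03 and 0.12 in R1. In HN they lay between 0.05 and 0.22. Kdm6a, an X-linked histone demethylase gene, met the call on day 13 (log2 fold change -1.9, SE 0.51, limma adjusted p = 0.0284) with values of 213, 320 and 209 in R1 and 9.73, 10.6 and 0 in HN. In R1 its day 13 value was close to that of day 0, and the call was lost with edgeR, DESeq2, quantile normalization and the scaling on well expressed genes.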

How the data were processed

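RNA-seq of mESCs was done in 6 libraries, 3 of R1 and 3 of HN. Per the labels and the study's methods, the authors aligned paired-end reads to mm10 with STAR, removed duplicates with Picard, counted reads on exons with HTSeq and divided them by DESeq2 size factors. bcl2fastq is also named in the submitters' processing notes. Versions, annotation and strand setting are not given in the sources used here. The deposited values are this normalized signal per gene. All values (100%, within 0.01) were whole multiples of 1 read, so reads were recovered for depth, thinning, edgeR and DESeq2. Libraries held 1640391 to 3866717 reads after duplicate removal, and low genes carry the most counting error. A value of 3 reads was taken as the detection limit.

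Libraries were grouped by the date in the sample name. log2(value + 1) was fitted with limma 3.58.1 (variance trend, line as block) in R 4.3.3 over 14276 genes with a mean of at least 5, and genes were called at an adjusted p-value (Benjamini-Hochberg) below 0.05 with a log2 fold change beyond 1 in either direction. The line by date interaction and day 3 against day 0 were fitted in the same way. Scripts were tested on simulated data. The date pairing comes from the sample names. Alternatives were a replicate block by date, no block, median centring, quantile normalization, edgeR 4.0.16, DESeq2 1.42.0, pseudocounts of 0.1 and 10, no filter, a mean of at least 50, no variance trend, thinning and leaving out each library. Scaling on genes with a mean of at least 50 and leaving out chromosomes 1 and 11 were added after seeing the data.

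The members and gene lists were chosen with earlier results of these data known. Named genes are Htt, 6 mESC markers, the 15 largest rises and falls among called genes with a mean of at least 50 that lay outside both earlier libraries in each line, the 5 largest of each sign at any level, and up to 4 called members of each list. Other list members named were chosen after their values were seen. Positions and lengths are from GENCODE M21 (21712 names matched, 1700 not) and promoters from RefSeq. Gene names had turned into dates in 27 lines of the table, which were tested but not named. Some genes that the rule names are not reported here.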

Additional observations from a re-analysis of the deposited data

Results flagged for a closer look

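Among the 4 earlier-date libraries, 1 library stood apart from the other 3 by Dixon's criterion in 8 of the 138 named genes, where chance alone gives about 1 in 20. On day 0 of R1 these were Nkd1 at a normalized read count of 12.8 and Pax3 at 4.26, each the highest of the earlier values. On day 3 of R1 they were Slc26a4 at 3.7, Hoxd11 at 9.62 and 1700095B22Rik at 5.18, all highest. On day 0 of HN they were Prrx1 at 3.65 and Cebpb at 19.5, both highest, and on day 3 of HN Pou3f1 at 9.21, the lowest. The day 13 values of all 8 genes lay above the library that stood apart.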

How the results depend on the processing

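The 1216 genes called higher became 399 with quantile normalization, 748 with DESeq2, 751 and 769 with pseudocounts of 0.1 and 10, 1884 with no filter, 17 with a mean of at least 50, 531 after thinning and 1995 with the replicate block. Leaving out 1 library gave 0 to 2000, with 0 when either day 13 library was left out and 2000 without HN on day 0. The 176 genes called lower became 87 with median centring (94% of calls higher), 415 with quantile normalization, 88 with a pseudocount of 10, 105 with a mean of at least 50, 91 without the variance trend, 107 after thinning and 43 when scaled on genes with a mean of at least 50 (97.2% of calls higher), and leaving out 1 library gave 0 to 299, with 299 without HN on day 0. Of the main calls, edgeR shared 1213 higher and 145 lower, DESeq2 746 and 130, and quantile normalization 379 and 106. Without chromosomes 1 and 11, 919 and 174 genes were called. The difference of the date effect between lines rose from 0 to 553 genes with no filter and stayed at 0 in the 7 other alternatives. Day 3 against day 0 went from 361 called genes to 115 with DESeq2, 120 with a pseudocount of 10, 225 with no filter, 109 with a mean of at least 50 and 0 without the variance trend (2781 at an unadjusted limma p under 0.05). Day 13 libraries had 10.4% more genes with a read, 17.6% after thinning and 14.3% with at least 5 reads, and 9.33% to 11.2% with 1 library left out. The shift of chromosome 1 against the others was 0.32 to 0.58 and that of chromosome 11 0.36 to 0.42 over all settings. Of the 131 called genes named by the rule, none changed sign in any setting. With 1 library left out this was fixed in advance. In each line their day 13 values lay outside both earlier values, on the same side. Of the 131 genes, 39 kept their call in all 14 alternatives with 6 libraries in which they were tested. Causes were not tested. The replicate block called all 131.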
